A study of Mus musculus with 12 samples.

Results

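The genes described here are 35 genes of DNA replication and cell division, of which 16 act mainly in S phase, when the genome is copied, and 19 act mainly in the run-up to and passage through mitosis. They were followed in hippocampus and ileum and were picked out on the array by symbol, from a list chosen with earlier results of these data known. A gene counted as measured where the array annotation gave a transcript cluster, the unit that stands for a transcript on the array, with that symbol and no other. Where a gene had several such clusters, the one with the highest mean over the 12 arrays was used. This left 30 measured genes, 13 of S phase and 17 of mitosis. The array holds 35556 clusters, of which 21218 carried a single symbol, and these named 18820 genes. *Tyms*, *Gins2*, *Ccne2* and *Foxm1* appeared only on clusters shared with other symbols and *Ccnb1* was named on none, so these 5 genes have no value.

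The arrays compared mice that lack FIRE with mice that have it. FIRE is an enhancer in an intron of *Csf1r*, the gene of the receptor through which macrophages receive survival signals, and the deletion is in the germ line, so that every cell of a FIRE -/- mouse carries it. Hippocampus FIRE -/-, hippocampus FIRE +/+, ileum FIRE -/- and ileum FIRE +/+ had 3 arrays each, all from mice of strain C57BL/6J/CBA aged 6 weeks and perfused with saline. In both tissues the FIRE -/- arrays came from 1 male and 2 females and the FIRE +/+ arrays from 2 males and 1 female by their labels. The ileum pieces were labelled as holding a Peyer's patch, a lymphoid follicle cluster of the gut wall. Hippocampus FIRE -/- replicate 2, labelled female, read like the male arrays, with *Xist* at 2.44 and the Y-linked *Eif2s3y* at 6.18, against 7.15 and 2.16 on FIRE -/- replicate 3, also labelled female. The labels do not say whether the same mice gave both tissues, and they number no animals, so p-values measure the spread between these arrays. Values are log2 signals summarised by robust multi-array averaging (RMA), on which a difference of 1 is a doubling.

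Neuron and enterocyte markers separated the tissues as labelled, but B cell markers of the patch were high on 2 of the 6 ileum arrays only. A list of 8 hippocampal neuron markers averaged 10.45 to 10.63 on hippocampus arrays and 4.49 to 4.85 on ileum arrays, and 10 villus enterocyte markers averaged 3.80 to 4.46 on hippocampus arrays and 10.84 to 11.53 on ileum arrays. In the hippocampus 7 of 9 microglia markers fell in FIRE -/- mice, with list means of 3.98 to 4.21 on FIRE -/- arrays and 6.35 to 6.65 on FIRE +/+ arrays. The ileum pieces differed in lymphoid tissue: 10 B cell markers averaged 7.42 on ileum FIRE -/- replicate 1 and 7.27 on ileum FIRE +/+ replicate 2, and 3.29 to 3.57 on the other 4 ileum arrays, beside 2.67 to 2.96 on the hippocampus arrays. The B cell genes *Cr2* and *Ms4a1* lay at 2.30 to 2.44 and 2.14 to 2.68 on those 4 arrays, against 2.21 to 2.41 and 1.85 to 2.26 in the hippocampus. Other B cell markers stayed higher on those 4 arrays, such as *Cd79b* at 5.26 to 5.94, against 3.11 to 4.48 in the hippocampus. In 5 of the 10 markers every hippocampus array lay below every ileum array, which was not counted over all clusters. Array medians ran from 4.29 to 4.46.

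A cell that is about to divide first licenses its replication origins by loading the MCM helicase with the help of CDC6 and CDT1, and then fires them under cyclin E and cyclin A with their kinases. The genes of this step are transcribed under E2F factors. After replication, cyclin B with CDK1, the Aurora and Polo-like kinases, motor proteins and the spindle checkpoint carry the cell through mitosis, and many of their genes are repressed in resting cells by the DREAM complex, through promoter elements called CHR. In the adult intestine division is concentrated in the crypts, whose progenitors renew the epithelium, and in the germinal centres of Peyer's patches. In the adult hippocampus it is largely limited to glia and to the progenitors of the dentate gyrus.

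The first question was how far the replication and division transcripts of the hippocampus lay below those of the ileum. Of the 30 measured genes, 28 were lower in the hippocampus, 1 was higher and 1 did not pass the test. The test was a limma fit whose p-values were adjusted by Benjamini and Hochberg across all 21218 clusters, and a gene passed when its adjusted p was under 0.05. Over all clusters tested, 36.1% were lower in the hippocampus and 32.2% higher, with a median log2 difference of -0.05. The mitosis genes lay furthest apart. All 17 fell in the hippocampus, with a median log2 difference of -3.50 and a range of -4.62 to -2.27. Of the 13 S phase genes 11 fell, with a median over the 13 of -2.03 and a range of -2.91 to 0.97. Since whole tissue was measured, fewer dividing cells and less RNA per cell cannot be told apart.

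**Figure D1:**
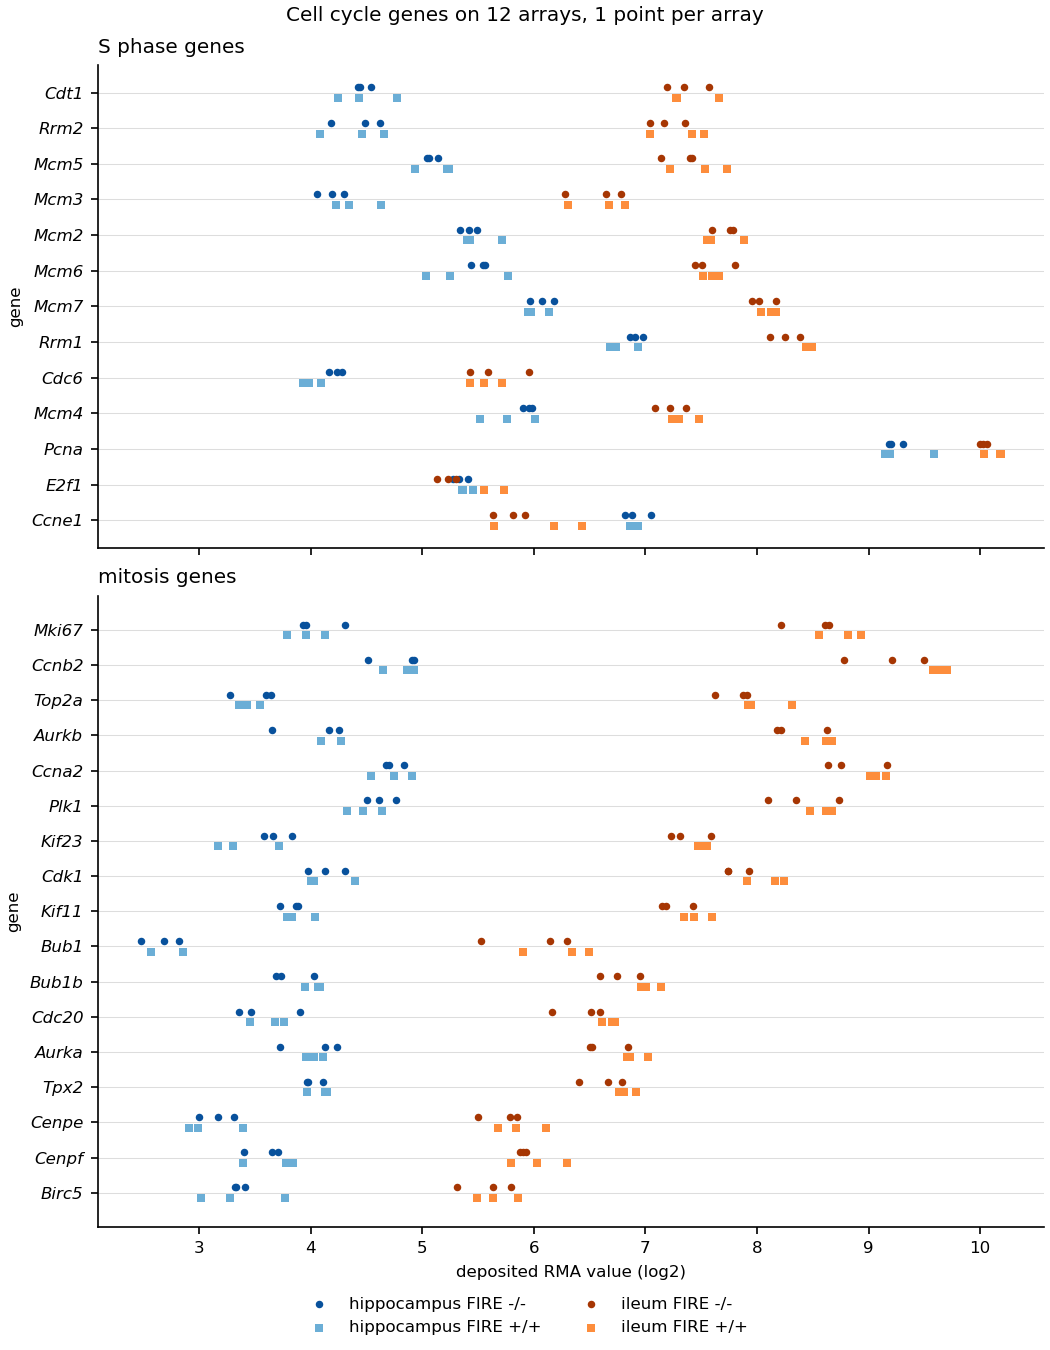
Deposited log2 values of the 30 measured cell cycle genes, 1 point per array, for hippocampus (blue) and ileum (orange), with FIRE -/- as dark circles and FIRE +/+ as light squares. The tissues separate for every gene but *E2f1*, and how many of all clusters separate in this way was not counted. *Ccne1* is the gene whose hippocampus values lie above its ileum values, at 6.82 to 7.05 against 5.64 to 6.43.

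Among the mitosis genes the difference was largest for *Mki67*, which encodes the Ki-67 protein that coats mitotic chromosomes and is absent from resting cells. Its value was lowest at 3.79, with a median of 3.96 and a highest value of 4.31, on the 6 hippocampus arrays, and lowest at 8.22, with a median of 8.63 and a highest value of 8.93, on the 6 ileum arrays. The tissues were separated by a gap much wider than either range, and *Mki67* was 24.5-fold lower in the hippocampus (log2 difference -4.62, SE 0.11, limma adjusted p = 1.61e-12). *Ccnb2*, which encodes cyclin B2, a partner of CDK1, ran from 4.51 through a median of 4.89 to 4.93 in the hippocampus and from 8.78 through 9.54 to 9.70 in the ileum. Its ileum spread was the wider, and its lowest ileum array, a FIRE -/- array, still stood far above every hippocampus array (log2 difference -4.60, SE 0.12, limma adjusted p = 3.92e-12). *Top2a*, whose product untangles sister chromatids, ran from 3.28 through 3.49 to 3.65 in the hippocampus and from 7.62 through 7.92 to 8.31 in the ileum. It was 21.9-fold lower in the hippocampus, again with no overlap (log2 difference -4.45, SE 0.10, limma adjusted p = 7.95e-13). *Aurkb*, the Aurora kinase of the chromosomal passenger complex, ran from 3.66 through 4.13 to 4.28 in the hippocampus and from 8.18 through 8.52 to 8.68 in the ileum. It was 20.6-fold lower in the hippocampus (log2 difference -4.37, SE 0.12, limma adjusted p = 4.56e-12).

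The mitosis genes with the smallest differences were *Birc5* and *Cenpf*, and both still passed. *Birc5*, which encodes survivin, the partner of Aurora B in the passenger complex, ran from 3.02 through 3.33 to 3.77 in the hippocampus and from 5.32 through 5.63 to 5.86 in the ileum. It was 4.81-fold lower in the hippocampus (log2 difference -2.27, SE 0.13, limma adjusted p = 6.75e-09). *Aurkb*, of the same complex, was 20.6-fold lower, and the 2 genes were not tested against each other. *Cenpf*, which encodes a large protein of the outer kinetochore, ran from 3.39 through 3.68 to 3.85 in the hippocampus and from 5.80 through 5.92 to 6.30 in the ileum (log2 difference -2.34, SE 0.11, limma adjusted p = 7.33e-10). Between these ends stood the remaining 11 genes, all without overlap between the tissues. The share of all clusters without such overlap was not counted, and 36.1% of all clusters were called lower in the hippocampus. *Ccna2*, the cyclin of S phase and G2, differed by -4.23 on the log2 scale. The kinase genes *Plk1* and *Cdk1* differed by -3.94 and -3.81. The motor genes *Kif23*, whose product is needed for cytokinesis, and *Kif11*, whose product separates the spindle poles, differed by -3.90 and -3.50. The spindle checkpoint genes *Bub1* and *Bub1b* differed by -3.46 and -2.98, and *Cdc20*, which encodes the activator of the anaphase-promoting complex that the checkpoint restrains, by -2.95. The log2 difference was -2.73 for the spindle pole kinase gene *Aurka*, -2.67 for *Tpx2*, which encodes the activator of Aurora A, and -2.66 for the kinetochore motor gene *Cenpe*. On all 6 hippocampus arrays 12 of the 17 mitosis genes lay below the median of all clusters on that array, and on the ileum arrays all 17 lay above it.

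Among the S phase genes the largest difference was that of *Cdt1*, which encodes the licensing factor that helps to load MCM onto origins. It ran from 4.25 through a median of 4.44 to 4.77 in the hippocampus and from 7.19 through 7.32 to 7.66 in the ileum. The tissues did not overlap, and *Cdt1* was 7.52-fold lower in the hippocampus (log2 difference -2.91, SE 0.11, limma adjusted p = 1.06e-10). *Rrm2*, the small subunit of ribonucleotide reductase, which makes the building blocks of DNA, ran from 4.09 through 4.48 to 4.66 in the hippocampus and from 7.04 through 7.26 to 7.53 in the ileum (log2 difference -2.84, SE 0.12, limma adjusted p = 5.12e-10). Its partner *Rrm1*, the large subunit, differed by -1.51 on the same scale. The 2 subunits of 1 enzyme were thus both lower in the hippocampus, *Rrm2* 7.16-fold and *Rrm1* 2.85-fold.

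The 6 genes of the MCM2-7 helicase, which opens the double helix ahead of the replication fork, all fell in the hippocampus. *Mcm5* ran from 4.93 through 5.10 to 5.24 in the hippocampus and from 7.14 through 7.41 to 7.74 in the ileum (log2 difference -2.30, SE 0.10, limma adjusted p = 4.03e-10). *Mcm3* ran from 4.06 through 4.26 to 4.63 in the hippocampus and from 6.28 through 6.66 to 6.82 in the ileum (log2 difference -2.29, SE 0.12, limma adjusted p = 2.38e-09). Both left a wide gap between the tissues. *Mcm2*, *Mcm6* and *Mcm7* differed by -2.23, -2.15 and -2.03, close to *Mcm5* and *Mcm3*, and *Mcm4* differed by -1.42. The 95% confidence interval of *Mcm4*, -1.62 to -1.23, did not reach those of the other 5 subunits, of which the nearest to 0 ended at -1.88. These intervals measure the spread between arrays and not how strongly a cluster responds, so a difference between subunits was not tested. *Cdc6*, the other loading factor, differed by -1.50.

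The smallest S phase differences belonged to *E2f1* and *Pcna*, and *Ccne1* went the other way. *E2f1*, the gene of the factor that drives S phase transcription, ran from 5.28 through 5.36 to 5.45 in the hippocampus and from 5.13 through 5.43 to 5.74 in the ileum. The hippocampus range lay inside the ileum range, and the log2 difference of -0.05 did not pass (95% confidence interval -0.19 to 0.09, limma adjusted p = 0.495). *Pcna*, the sliding clamp of DNA polymerases, which also serves DNA repair, ran from 9.14 through 9.20 to 9.58 in the hippocampus and from 9.997 through 10.05 to 10.18 in the ileum. It was bright in both tissues and 1.75-fold lower in the hippocampus (log2 difference -0.81, SE 0.08, limma adjusted p = 1.79e-06). *Ccne1*, which encodes cyclin E1, the cyclin of S phase entry, is named here because it alone rose, which was seen from its values. It ran from 6.82 through 6.89 to 7.05 in the hippocampus and from 5.64 through 5.87 to 6.43 in the ileum, without overlap, and was 1.96-fold higher in the hippocampus (log2 difference 0.97, SE 0.12, limma adjusted p = 1.08e-05).

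**Figure D2:**
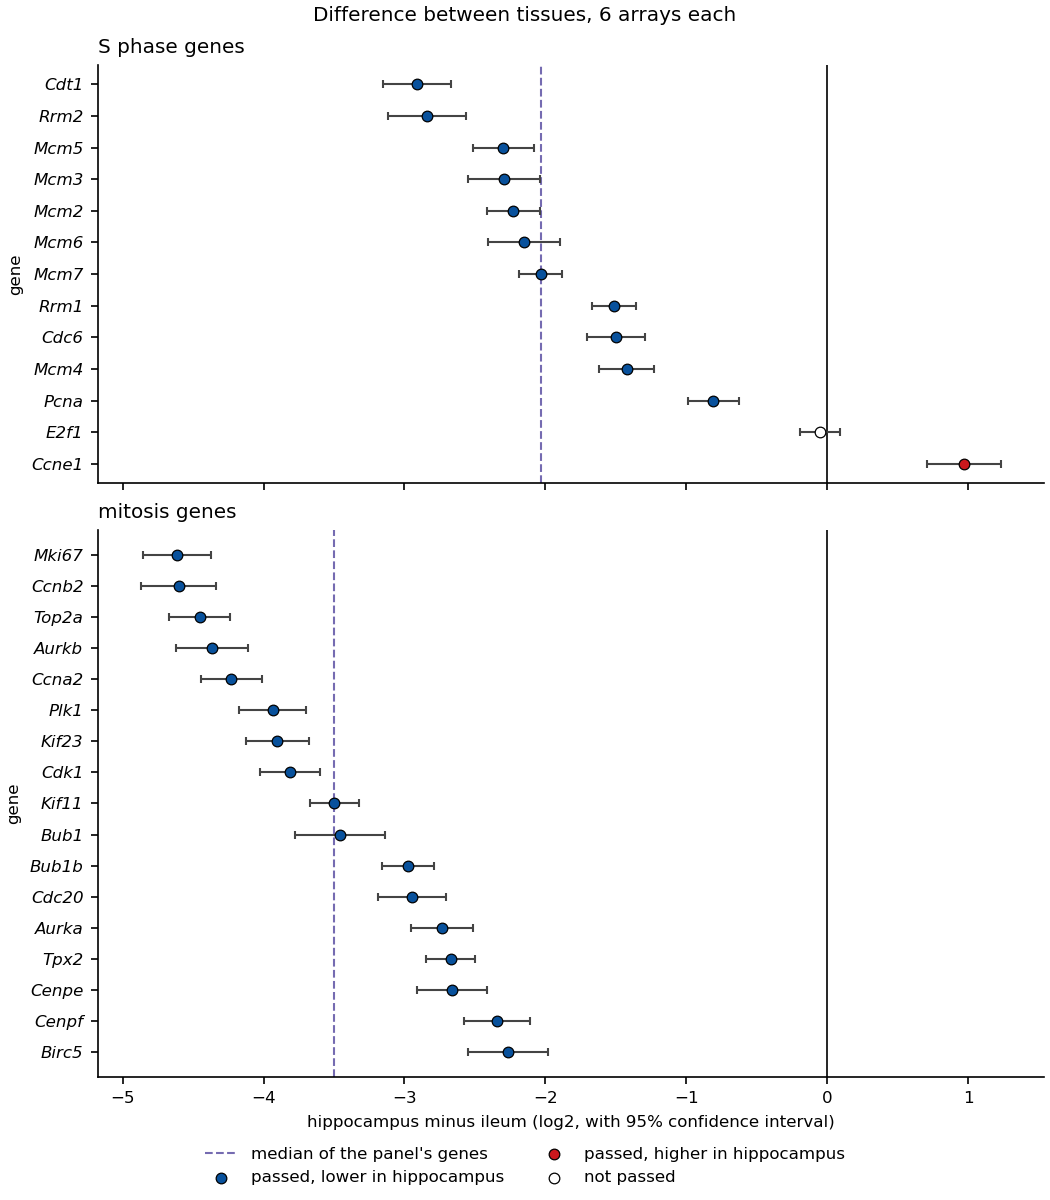
Log2 difference of hippocampus minus ileum for each gene, with its 95% confidence interval from the limma fit (6 arrays per tissue) and the median of each panel as a dashed line. All mitosis genes lie between -4.62 and -2.27, whereas the S phase genes lie between -2.91 and 0.97, with *E2f1* on 0 and *Ccne1* to its right.

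Set side by side, a difference of at least 3 on the log2 scale, or 8-fold, was reached by 10 of the 17 mitosis genes and by 0 of the 13 S phase genes, and 4.54% of all clusters passed and were lower in the hippocampus by that much. These counts depend on how genes were assigned to a phase. *Ccna2*, the cyclin of S phase and G2, was counted with the mitosis genes and differed by -4.23. Within FIRE -/- mice 11 S phase genes were lower in the hippocampus and 1 was higher, with a median of -1.98, and all 17 mitosis genes were lower, with a median of -3.43. Within FIRE +/+ mice the counts were the same and the medians were -2.09 and -3.59. Without the B cell-rich ileum arrays the medians were -2.03 for S phase and -3.55 for mitosis, with the same counts. Of 11 crypt markers 9 were lower in the hippocampus, where 36.1% of all clusters were. *Lgr5*, the receptor gene of crypt stem cells, was among them at a log2 difference of -3.24. *Tnfrsf19* was higher, at 2.37, and *Sox9* did not pass. Of 11 neural progenitor and young neuron markers 9 were higher in the hippocampus, where 32.2% of all clusters were, and 1, *Prom1*, was lower at -1.79. The part of either cell type in the cell cycle differences was not tested.

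The genes were next set against their promoters, since S phase and mitosis genes are known to carry different elements. Of the 35 genes, 28 have an entry in a RefSeq table of promoter windows (build GRCm38.p6), each from 250 bases before to 50 bases after the annotated start, and 26 of these were measured. The 13 S phase and 15 mitosis genes with an entry are therefore not the 13 and 17 measured ones, since they include the unmeasured *Tyms* and *Ccnb1* and lack *Mcm4*, *Tpx2*, *Ccna2* and *Aurkb*. Letters were searched on both strands. For E2F a match was TTGGCGC or one of its variants, which were the string TTCCCGC and the string TTCGCGC. For CHR a match was TTTGAA or the variant string TTTAAA. The box bound by NF-Y was searched as CCAAT. E2F strings of opposite strands can overlap and were then counted as separate matches. E2F letters were in the windows of 7 of 13 S phase genes (53.8%), 3 of 15 mitosis genes (20%) and 8.21% of 27025 genes in the table. CHR letters were in 4 of 13 S phase genes (30.8%), 14 of 15 mitosis genes (93.3%) and 27.8% of all genes. CCAAT was in 8 of 13 S phase genes (61.5%), 14 of 15 mitosis genes (93.3%) and 37.9% of all genes. Windows with both CHR and CCAAT letters made up 23.1% for S phase, 86.7% for mitosis and 10.9% for all genes. A match is a string of letters and not a measured binding site.

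**Figure D3:**
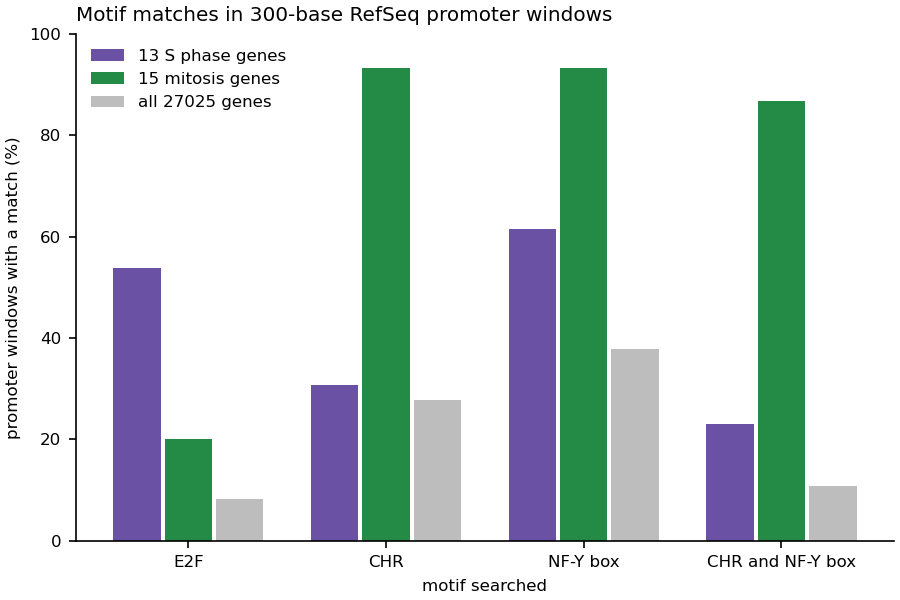
Share of RefSeq promoter windows (percent, axis from 0) that hold each motif on either strand, for the 13 S phase and 15 mitosis genes with a window, the unmeasured *Tyms* and *Ccnb1* included, and all 27025 genes. CHR and the NF-Y box occur in 93.3% of the mitosis windows, and E2F in 53.8% of the S phase windows.

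The windows shown are those of 3 genes per phase, the richest in matches before the start among the 4 with a window and the largest tissue difference, each as the 190 bases just before the start, 5′ to 3′ on the strand of the gene, with E2F, CHR and CCAAT matches in capitals. The S phase genes are *Mcm5* (chr8:75109319-75109508, plus strand), *Mcm3* (chr1:20820313-20820502, minus strand) and *Rrm2* (chr12:24708064-24708253, plus strand), and *Mcm6* (chr1:128359706-128359895, minus strand) was added after its matches were seen. *Mki67* (chr7:135716380-135716569, minus strand), *Top2a* (chr11:99024190-99024379, minus strand) and *Ccnb2* (chr9:70421555-70421744, minus strand) are the mitosis genes.
Mcm5: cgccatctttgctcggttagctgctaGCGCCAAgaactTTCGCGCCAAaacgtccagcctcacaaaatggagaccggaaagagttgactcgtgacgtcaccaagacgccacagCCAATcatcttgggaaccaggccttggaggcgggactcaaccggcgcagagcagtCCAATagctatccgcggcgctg
Mcm3: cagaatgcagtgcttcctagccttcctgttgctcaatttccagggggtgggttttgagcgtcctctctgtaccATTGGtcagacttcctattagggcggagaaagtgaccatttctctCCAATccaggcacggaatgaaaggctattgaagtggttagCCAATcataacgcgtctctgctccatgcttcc
Rrm2: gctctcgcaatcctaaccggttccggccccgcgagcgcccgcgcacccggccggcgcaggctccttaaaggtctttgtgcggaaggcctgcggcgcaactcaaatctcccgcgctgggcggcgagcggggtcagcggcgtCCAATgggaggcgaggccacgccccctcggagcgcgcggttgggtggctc
Mcm6: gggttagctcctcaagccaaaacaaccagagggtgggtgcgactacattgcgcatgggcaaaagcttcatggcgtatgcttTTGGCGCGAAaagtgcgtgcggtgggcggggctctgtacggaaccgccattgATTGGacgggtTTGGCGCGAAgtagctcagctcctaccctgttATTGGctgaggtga
Mki67: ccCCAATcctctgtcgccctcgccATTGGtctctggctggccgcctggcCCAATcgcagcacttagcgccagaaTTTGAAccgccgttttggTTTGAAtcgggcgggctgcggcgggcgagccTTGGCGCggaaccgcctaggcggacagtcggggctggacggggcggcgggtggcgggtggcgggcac
Top2a: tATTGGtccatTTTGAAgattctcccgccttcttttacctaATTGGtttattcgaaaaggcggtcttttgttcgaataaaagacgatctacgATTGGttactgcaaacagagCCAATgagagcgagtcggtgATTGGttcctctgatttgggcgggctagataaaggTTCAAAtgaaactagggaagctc
Ccnb2: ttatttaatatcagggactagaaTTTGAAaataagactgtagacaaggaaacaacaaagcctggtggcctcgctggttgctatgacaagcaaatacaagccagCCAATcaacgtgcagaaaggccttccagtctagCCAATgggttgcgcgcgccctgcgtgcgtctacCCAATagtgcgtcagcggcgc
The *Mcm5* stretch holds 3 E2F and 2 CCAAT matches, and that of *Mcm6* 4 E2F matches in 2 overlapping pairs and 2 CCAAT matches. Neither stretch holds CHR letters, but *Mcm5* has a CHR match further out, at -221 from the start, and is counted with CHR above. The *Mcm3* stretch holds 3 CCAAT matches and that of *Rrm2* 1, with neither E2F nor CHR letters in either. In the rest of their windows *Mcm3* has 3 E2F matches and *Rrm2* 1 CHR match, all after the start. The *Top2a* stretch holds 5 CCAAT and 2 CHR matches, and the *Ccnb2* stretch 3 CCAAT and 1 CHR match, without E2F letters in either. *Mki67* holds all 3 kinds, with 3 CCAAT, 2 CHR and 1 E2F match. *Mcm5*, *Mcm3*, *Rrm2* and *Mcm6* differed between the tissues by -2.30, -2.29, -2.84 and -2.15 on the log2 scale, and *Mki67*, *Top2a* and *Ccnb2* by -4.62, -4.45 and -4.60. These genes were picked by tissue difference and by matches, and a link between the 2 was not tested.

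The second question was whether FIRE -/- and FIRE +/+ mice differed in these transcripts in the hippocampus, where microglia markers fell in FIRE -/- mice. None of the 30 genes passed in either direction, while 0.448% of all clusters were lower in FIRE -/- mice (95 clusters) and 0% higher. At an unadjusted p under 0.05 there were 625 lower and 379 higher clusters, and *Cdc6* was the cell cycle gene among them. The S phase genes had a median log2 difference of 0.02, with a range of -0.22 to 0.23, and the mitosis genes a median of -0.0031, with a range of -0.22 to 0.30, beside 0.0077 over all clusters. In 1 of the 30 genes every FIRE -/- array lay above every FIRE +/+ array, and in 0 below, where 4.46% and 5.20% of all clusters did so.

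That gene was *Cdc6*, which had 4.28, 4.24 and 4.17 on the FIRE -/- arrays, against 3.98, 3.93 and 4.09 on the FIRE +/+ arrays. The arrays did not overlap, but the gap between the nearest arrays was small and the difference did not pass (log2 difference 0.23, SE 0.09, limma adjusted p = 0.979). *Mcm3* had 4.06, 4.30 and 4.19 on the FIRE -/- arrays, against 4.63, 4.23 and 4.35 on the FIRE +/+ arrays. The genotypes overlapped, with FIRE +/+ replicate 1 the highest array (log2 difference -0.22, SE 0.13, limma adjusted p = 0.992). *Mcm4* had 5.96, 5.91 and 5.98 on the FIRE -/- arrays, against 6.01, 5.76 and 5.52 on the FIRE +/+ arrays, which also overlapped (log2 difference 0.19, SE 0.13, limma adjusted p = 0.992). The 2 helicase subunits thus had differences of opposite sign within the spread of the arrays.

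Of the mitosis genes, *Kif23* had 3.84, 3.58 and 3.66 on the hippocampus FIRE -/- arrays, against 3.30, 3.17 and 3.71 on the FIRE +/+ arrays. FIRE +/+ replicate 3 lay among the FIRE -/- arrays, and the log2 difference of 0.30 did not pass (SE 0.15, limma adjusted p = 0.992). *Bub1b* had 4.03, 3.73 and 3.69 on the FIRE -/- arrays, against 4.07, 4.08 and 3.95 on the FIRE +/+ arrays (log2 difference -0.22, SE 0.11, limma adjusted p = 0.992). Here FIRE -/- replicate 1 lay within the FIRE +/+ range. *Plk1* had 4.51, 4.61 and 4.77 on the FIRE -/- arrays, against 4.47, 4.64 and 4.33 on the FIRE +/+ arrays, with overlap (log2 difference 0.15, SE 0.11, limma adjusted p = 0.992). For *Mki67* the interval of the hippocampus difference ran from -0.20 to 0.42, and for *Top2a* from -0.21 to 0.34.

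**Figure D4:**
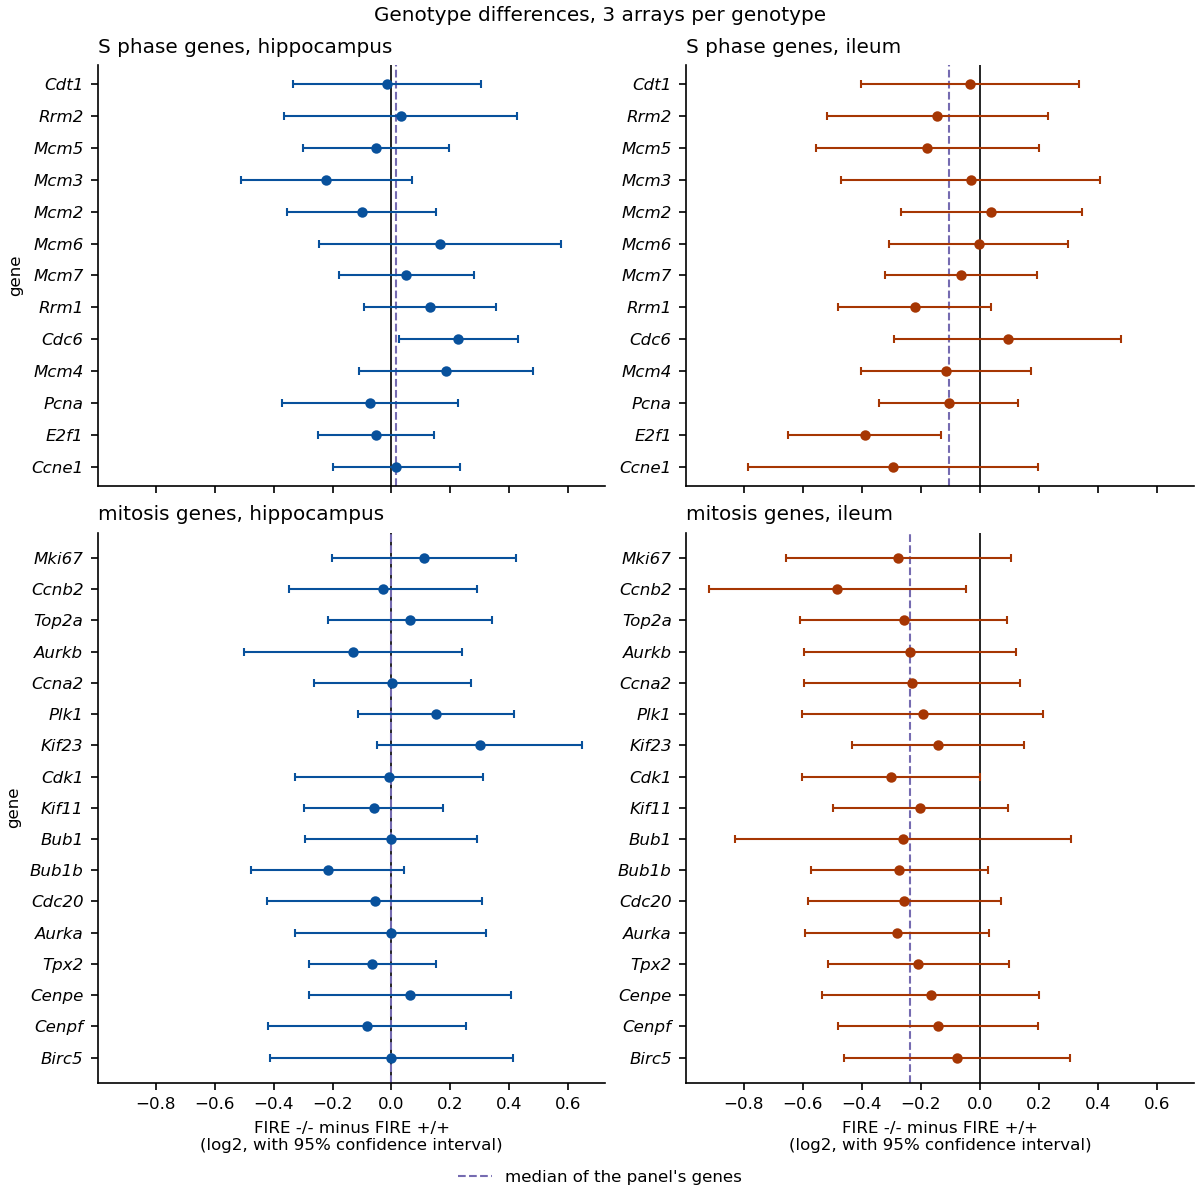
Log2 difference of FIRE -/- minus FIRE +/+ for each gene in the hippocampus (left) and the ileum (right), with 95% confidence intervals from the limma fits (3 arrays per genotype) and the median of each panel as a dashed line. The hippocampus differences scatter around 0, with medians of 0.02 and -0.0031, and the ileum differences lie mostly below 0, with medians of -0.11 for S phase and -0.24 for mitosis. No gene passed in either tissue.

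In the ileum none of the 30 genes passed either, and 0% of all clusters were called lower and 0% higher. At an unadjusted p under 0.05 there were 327 lower and 393 higher clusters, *Ccnb2* and *E2f1* among the lower. The differences of the cell cycle genes nevertheless lay mostly on 1 side: 28 of the 30 were negative, or 93.3%, beside 52.9% of all clusters. All 17 mitosis genes were negative, with a median of -0.24 and a range of -0.48 to -0.08, and 11 of the 13 S phase genes, with a median of -0.11 and a range of -0.39 to 0.09. The median over all clusters was -0.01. The genes share the same 6 arrays and are not independent, so the count carries no p. In 6 of the 30 genes every FIRE -/- array lay below every FIRE +/+ array, and in 0 above, where 4.52% and 3.52% of all clusters did so.

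*E2f1* had 5.23, 5.30 and 5.13 on the ileum FIRE -/- arrays, against 5.55, 5.55 and 5.74 on the ileum FIRE +/+ arrays. All FIRE -/- arrays were below all FIRE +/+ arrays, and the difference did not pass over all clusters (log2 difference -0.39, SE 0.11, 95% confidence interval -0.65 to -0.13, limma adjusted p = 0.999). *Ccne1*, a target of E2F factors, had 5.81, 5.64 and 5.92 on the FIRE -/- arrays, against 5.64, 6.18 and 6.43 on the FIRE +/+ arrays. The FIRE +/+ arrays spread widely, and replicate 1 of them lay level with the lowest FIRE -/- array (log2 difference -0.29, SE 0.21, limma adjusted p = 0.999). *Rrm1* had 8.25, 8.39 and 8.12 on the FIRE -/- arrays, against 8.48, 8.44 and 8.49 on the FIRE +/+ arrays, with no overlap and a narrow gap (log2 difference -0.22, SE 0.11, limma adjusted p = 0.999).

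Of the mitosis genes, *Ccnb2* had 8.78, 9.49 and 9.21 on the ileum FIRE -/- arrays, against 9.65, 9.58 and 9.70 on the ileum FIRE +/+ arrays. The FIRE +/+ arrays lay close together and above all FIRE -/- arrays, of which replicate 1, rich in B cell transcripts, was the lowest (log2 difference -0.48, SE 0.18, 95% confidence interval -0.92 to -0.05, limma adjusted p = 0.999). Without that array the difference was -0.29. *Cdk1*, the kinase that starts mitosis, had 7.74, 7.93 and 7.74 on the FIRE -/- arrays, against 8.16, 7.91 and 8.24 on the FIRE +/+ arrays. FIRE -/- replicate 2 and FIRE +/+ replicate 2 overlapped (log2 difference -0.30, SE 0.13, limma adjusted p = 0.999). *Aurka* had 6.52, 6.85 and 6.50 on the FIRE -/- arrays, against 7.02, 6.83 and 6.86 on the FIRE +/+ arrays, and the same 2 replicates overlapped (log2 difference -0.28, SE 0.13, limma adjusted p = 0.999). *Bub1b*, *Top2a* and *Cdc20* completed the 6 genes without overlap, at log2 differences of -0.27, -0.26 and -0.26.

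FIRE -/- replicate 3 had the lowest ileum mean in both phases. The mean of the 17 mitosis genes was 7.19, 7.43 and 7.11 on the ileum FIRE -/- arrays, against 7.56, 7.39 and 7.47 on the ileum FIRE +/+ arrays. FIRE -/- replicates 1 and 3 were low and each held the lowest value of 8 of the 17 genes, while FIRE -/- replicate 2 lay within the FIRE +/+ range. Replicates 1 and 3 were the female FIRE -/- arrays and replicate 2 the male one. The female FIRE +/+ array, replicate 3, was at 7.47. The mean of the 13 S phase genes was 7.31, 7.25 and 7.12 on the FIRE -/- arrays, against 7.21, 7.46 and 7.35 on the FIRE +/+ arrays. Here FIRE -/- replicate 3 was lowest for 8 of the 13 genes and FIRE +/+ replicate 2 highest for 8. Of the 2 B cell-rich arrays, FIRE -/- replicate 1 was thus low in mitosis genes and not in S phase genes, and FIRE +/+ replicate 2 was high in S phase genes and not in mitosis genes. Without these arrays the ileum medians were -0.10 for S phase and -0.26 for mitosis. The mean of 11 crypt markers was 7.87, 8.16 and 8.01 on the FIRE -/- arrays, against 8.15, 8.16 and 8.33 on the FIRE +/+ arrays. Of these 11 differences 10 were negative, beside 52.9% of all clusters, with a median of -0.20, and none passed. *Lgr5* and the stem cell factor gene *Ascl2* lay at -0.44 and -0.61, the largest of the 11. Others hardly moved, such as *Olfm4*, with means of 11.15 on the FIRE -/- arrays and 11.16 on the FIRE +/+ arrays. *Smoc2* had means of 7.66 and 7.66. The part of crypt content in the cell cycle differences was not tested. In the hippocampus the same means hardly moved, at 3.77, 3.88 and 3.92 for mitosis on the FIRE -/- arrays, against 3.82, 3.85 and 3.90 on the FIRE +/+ arrays.

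**Figure D5:**
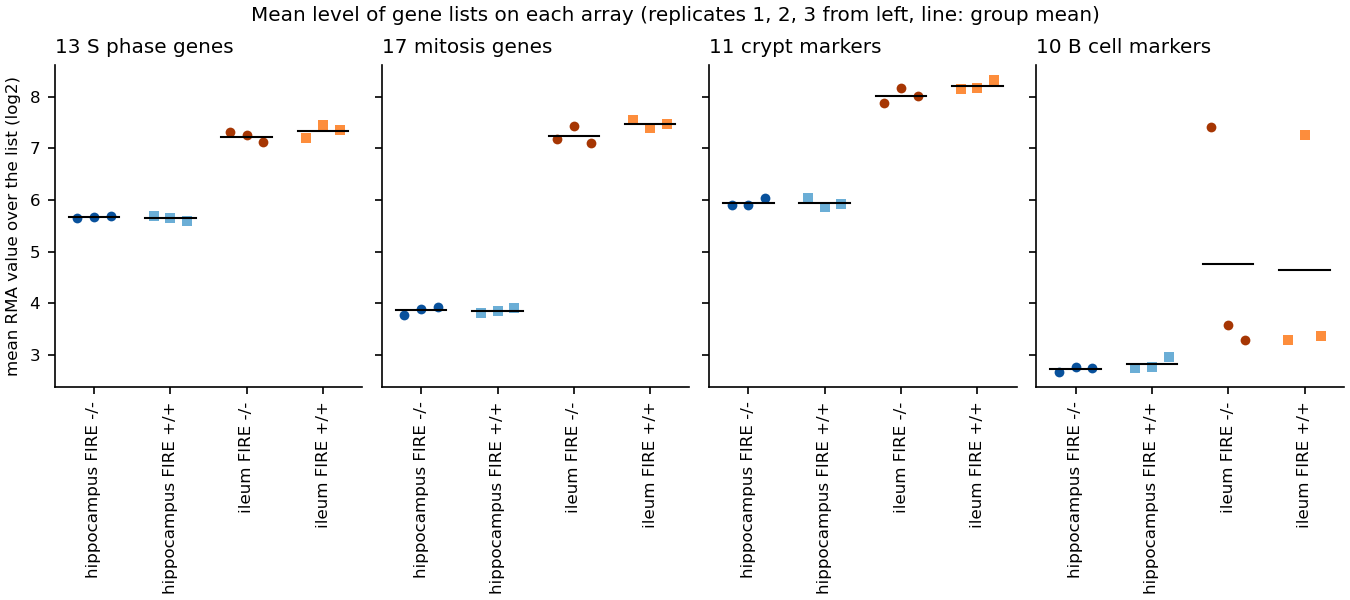
Mean log2 value of the 13 S phase genes, the 17 mitosis genes, 11 crypt markers and 10 B cell markers on each array, with replicates 1, 2 and 3 from left to right in each group and the group mean as a line. In the ileum, B cell markers reach 7.42 on FIRE -/- replicate 1 and 7.27 on FIRE +/+ replicate 2, whereas the cell cycle lists stay between 7.11 and 7.56 on all 6 arrays.

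The difference between the tissues in the genotype effect was tested directly, as the hippocampus effect minus the ileum effect. None of the 30 genes passed, and 0.0895% of all clusters (19) did. At an unadjusted p under 0.05 there were 523 lower and 371 higher clusters, *E2f1* and *Rrm1* among the higher. The median was 0.13 for the S phase genes and 0.23 for the mitosis genes, beside 0.02 over all clusters. All 17 mitosis genes and 11 of the 13 S phase genes were positive, beside 11334 of the 21218 clusters. The effect of *Ccnb2* was -0.03 in the hippocampus and -0.48 in the ileum, a difference of 0.45 (SE 0.24, limma adjusted p = 0.9997). The effect of *Kif23* was 0.30 in the hippocampus and -0.14 in the ileum, a difference of 0.44 (SE 0.20, limma adjusted p = 0.9997). Both intervals included 0, at -0.08 to 0.99 for *Ccnb2* and -0.01 to 0.89 for *Kif23*.

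Further genes of the same processes were followed as lists, set beside 36.1% of all clusters lower in the hippocampus and 32.2% higher. Of 32 other S phase genes 28 were lower in the hippocampus than in the ileum and 1 was higher, with a median log2 difference of -1.28. *Mcm10*, *Dtl* and *Uhrf1*, which act in fork assembly, in the destruction of CDT1 and in the copying of DNA methylation, differed by -3.11, -3.09 and -2.97. The gene that rose was *Orc6*, a subunit of the origin recognition complex, at 0.47. Of 42 other mitosis genes 40 were lower and 2 higher, with a median of -2.35. *Ect2*, which encodes the cytokinesis exchange factor, differed by -4.00, and *Cks2*, which encodes a small CDK-binding protein, by -3.49. The 2 that rose were *Anln*, which encodes an actin-binding protein of the cleavage furrow, at 0.53 and *Pttg1*, which encodes securin, at 0.32. In the ileum FIRE -/- against FIRE +/+ comparison 31 of the 32 and 37 of the 42 were negative, beside 52.9% of all clusters. The medians were -0.13 and -0.19, and none passed. The largest were *Ckap2*, which encodes a spindle protein, at -0.61 and *Cdc25c*, which encodes a phosphatase that activates CDK1, at -0.59. In the hippocampus none passed, with medians of 0.03 and -0.04.

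Regulators of G1 and inhibitors of the cycle made up 2 further lists, set beside 36.1% of all clusters lower in the hippocampus and 32.2% higher. Of 10 G1 cyclins, their kinases and related factors 8 were lower in the hippocampus and 1 higher, with *Cdk6*, a kinase partner of D cyclins, at -2.99, *E2f2* at -2.80 and *Mycn* the one that rose, at 0.79. *E2f1*, which encodes an activator related to that of *E2f2*, lay at -0.05, and these 2 genes were not tested against each other. Of 15 inhibitors of the cycle 9 were lower in the hippocampus and 2 higher. *Cdkn2b*, the gene of the CDK4 and CDK6 inhibitor p15, differed by -4.91, more than *Mki67*, and *Cdkn2d*, the gene of a related inhibitor of the INK4 family, rose by 1.54. In neither tissue did a gene of these lists pass between FIRE -/- and FIRE +/+ mice. The largest difference was that of the inhibitor gene *Btg2* in the hippocampus (log2 difference -0.78, SE 0.23, limma adjusted p = 0.625). Every FIRE -/- array of it lay below every FIRE +/+ array, as in 5.20% of all clusters.

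For 3 of the genes the array holds several clusters with the same symbol. Both *Pcna* clusters gave a hippocampus minus ileum difference of -0.81. The other *Kif11* cluster, with means of 2.15 in the hippocampus and 2.99 in the ileum, differed by -0.83, against -3.50 for the cluster used. The other 2 *Top2a* clusters, with hippocampus means of 1.23 and 1.37 and ileum means of 1.65 and 1.79, differed by -0.41 and -0.42, against -4.45 for the cluster used. All of them had the same sign, and the dim clusters differed least. For *Kif11* and *Top2a*, clusters of the same gene thus gave unlike sizes. A size set beside that of another gene therefore depends on the clusters used.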

How the data were processed

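The authors extracted total RNA on RNeasy columns (after Trizol per the labels, which the methods do not mention), labelled it for Affymetrix whole-transcript arrays and deposited 1 log2 value per transcript cluster and array, made by RMA (background correction, quantile normalization and summarization of probes). Neither labels nor methods name a version of RMA. These log2 values were used as deposited. Symbols came from the platform annotation, and clusters that were unnamed (12457) or shared by several symbols (1881) were not tested. Each tissue was fitted with limma 3.58.1 (lmFit, eBayes) in R 4.3.3, FIRE -/- minus FIRE +/+, and a fit of 4 group means over the 12 arrays gave hippocampus minus ileum and the difference of the genotype effects. Adjustment was by Benjamini-Hochberg over 21218 clusters, at 0.05, with no fold limit. The members, gene lists and tests were chosen with earlier results of these data known. Named with per-array values were the members that passed a genotype test, the 3 of each phase with the largest genotype difference, and the 4 largest and 2 smallest of each phase between tissues. The fits were tested on simulated data drawn separately for each cluster, which leaves out shifts that the genes of an array share. Promoter windows came from RefSeq (GRCm38.p6), of which the first listed per gene was counted. *Mcm7* has 2 windows, and both hold E2F and CCAAT letters. Alternatives were other shrinkage or none, a second quantile normalization, all clusters, bright clusters, sex, array weights, 1 shared fit, the digits of the array code as a block, the mean of a gene's clusters, single genotypes, and leaving out each array or both B cell-rich arrays. The number of arrays limits the precision. With 3 arrays against 3 an exact permutation test of a single gene cannot go below p = 0.1.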

Additional observations from a re-analysis of the deposited data

How the results depend on the processing

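Under every alternative run, 0 cell cycle genes passed in the hippocampus, in the ileum or in the difference of the genotype effects, and no gene changed its call between the tissues. With clusters above the median brightness only, 17 genes were left to test between the tissues, of which 16 were lower in the hippocampus, and the mitosis median over 7 genes was -4.37. No mitosis gene was left in the hippocampus comparison, so these 7 passed the limit only through the ileum, which builds in a lower hippocampus value, and nothing rests on that median. With the mean of a gene's clusters the mitosis median between the tissues was -2.98. With the array code digits as a block the S phase median between the tissues was -2.15, the hippocampus mitosis median 0.0961 and the S phase median of the difference of the genotype effects 0.22. With 1 array left out, the hippocampus S phase median ranged from -0.0405 to 0.11, without FIRE -/- replicate 1 and FIRE +/+ replicate 2. The median difference of the genotype effects ranged from 0.0653 to 0.26 for S phase and from 0.18 to 0.34 for mitosis, the ileum S phase median from -0.17 to -0.05 and the ileum mitosis median from -0.34 to -0.17. Over all settings *E2f1* in the ileum ranged from -0.43 to -0.33, with adjusted p from 0.680 to 0.99992, and *Ccnb2* from -0.65 (without FIRE -/- replicate 2) to -0.29 (without FIRE -/- replicate 1), with adjusted p from 0.769 to 0.99992.

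Over all clusters, the 95 lower in hippocampus FIRE -/- mice became 24 without moderation of the spread, 17 among bright clusters, 41 in a shared fit and 62 with the code block. The 19 clusters whose genotype effect differed between the tissues became 8 without moderation, 34 with array weights, 12 to 41 lower with 1 array left out, and 62 lower and 3 higher without the B cell-rich arrays. FIRE -/- and FIRE +/+ also differed in labelled sex, which the sex covariate used although 1 hippocampus array read otherwise, and, in the hippocampus, in array code. The code digits were 09 on the 3 arrays of each ileum group and 07 on the 3 hippocampus FIRE +/+ arrays. Of the hippocampus FIRE -/- arrays 1 had 07 and 2 had 09, so tissue and code largely went together. Among FIRE -/- arrays with code 09 the medians between the tissues were -2.03 for S phase and -3.45 for mitosis. The standard error of a genotype difference over the 30 genes had a median of 0.13 in hippocampus and 0.15 in ileum, which limits the differences that could be detected. The signal of most mitosis genes in the hippocampus lay in the dim part of the arrays, which limits how exactly the fold difference is measured. No paired analysis was possible because the labels number no mice.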
